A study of Mus musculus with 57 samples.

Results

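The 48 genes described here act in G2 phase and mitosis, and all 48 had a row in the deposited table of 10565 genes, which writes symbols in lower case (mki67, top2a, ccnb1). They were chosen by name as known mitotic genes and not by a rule on their values, though earlier results of these data were known. Their levels were read in 56 single T helper 2 (Th2) cells, the CD4+ T cells that make interleukin-4, interleukin-5 and interleukin-13. Per the labels, the cells came from spleen CD4+ T cells of wild type C57BL/6 mice aged 8 weeks. They were activated on plate-bound anti-Hamster IgG with soluble anti-CD3 and anti-CD28, grown with anti-IFNγ and IL-4, given IL-2 after 2 days, cultured for 5 days in all and then restimulated with anti-CD3 and anti-CD28. The labels do not tie cells to animals or cultures. The cells therefore count as 1 sample, and every relation below describes these cells and carries no p-value. The titles number the cells in 5 sets, T1 with 8 cells and T2 to T5 with 12 each; what a set stands for is not given, and it was treated as a possible batch. The series' bulk sample, made from 10000 pooled cells, was not analysed here.

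A cell that has copied its DNA builds up cyclin B, which joins the kinase Cdk1 and drives the cell into mitosis. Aurora and Polo-like kinases then help to build the spindle, condensin and topoisomerase II fold the chromosomes, kinetochores tie the chromosomes to microtubules, and the spindle checkpoint holds back the anaphase-promoting complex (APC/C) until every chromosome is attached. Cytokinesis motors and scaffolds split the cell. Transcripts of these genes are low in resting lymphocytes and are made mostly from late S phase to mitosis. Their promoters are known for a short element, the cell cycle genes homology region (CHR), at which the MuvB complex represses them in quiescence and, with B-Myb and FoxM1, activates them in G2. CCAAT boxes, bound by the factor NF-Y, often lie upstream of it.

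The promoters are shown first because many of them hold elements that the choice of the genes did not use. In RefSeq promoters of GRCm38.p6, 40 of the 48 genes had an entry, which runs from 250 bases before to 50 bases after the gene start. The table of levels gives no coordinates, so this build was used for sequence only. The CHR was searched as TTTGAA on either strand (TTCAAA when read on the other) or TTCGAA. In the lines below, each sequence reads 5′ to 3′ on the gene's own strand, 30 bases long, and capitals mark the match nearest to the gene start. The genes shown all hold a match. They include several whose level went most closely with the other members, and some kinase, cyclin and ubiquitin enzyme genes that switch mitosis on and off. Members with an entry but no match were Cenpe, Nuf2, Nusap1, Birc5, Ccnb1, Tacc3, Melk and Gtse1. Of these, Cenpe and Nuf2 also went most closely with the other members, and Ccnb1 is a mitotic cyclin gene.
Mki67 (chr7:135716460-135716489, minus strand): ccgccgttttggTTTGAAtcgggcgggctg
Hmmr (chr11:40733412-40733441, minus strand): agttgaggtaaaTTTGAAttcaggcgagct
Kif11 (chr19:37376351-37376380, plus strand): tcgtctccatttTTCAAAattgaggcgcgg
Prc1 (chr7:80294434-80294463, plus strand): cctctggctcggTTTGAAttccgcggggtc
Top2a (chr11:99024195-99024224, minus strand): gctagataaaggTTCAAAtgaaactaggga
Aurka (chr2:172370521-172370550, minus strand): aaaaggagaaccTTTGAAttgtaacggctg
Ube2c (chr2:164769888-164769917, plus strand): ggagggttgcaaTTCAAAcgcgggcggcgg
Ccnb2 (chr9:70421533-70421562, minus strand): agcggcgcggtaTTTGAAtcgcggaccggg
Plk1 (chr7:122159453-122159482, plus strand): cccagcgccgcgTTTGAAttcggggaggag
Cdk1 (chr10:69352910-69352939, minus strand): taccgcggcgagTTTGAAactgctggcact
Bub1 (chr2:127831828-127831857, minus strand): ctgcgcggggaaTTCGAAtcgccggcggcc

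Of these 11 windows, 7 hold TTTGAA on the gene's own strand, 3 hold it on the other strand (Kif11, Top2a and Ube2c) and 1, that of Bub1, holds TTCGAA, which reads the same on both. In the 250 bases before the start, 16 of 40 members (40%, exact Clopper-Pearson 95% interval 24.9% to 56.7%, for counting error only) held a CHR, against 15.1% of the 5688 genes with an entry that were detected in at least 10 cells and 19.6% of all 27025 promoters in the table. The value depended on the window. In the whole window of 300 bases, 32 of 40 members (80%) held one, against 17% of the detected genes. In the stretch from 50 bases before to 50 after the start, which was chosen after the positions had been seen, 28 of 40 (70%) did, against 4.55%. Of the 32 members with a match, 24 had the nearest one within 30 bases of the start, at a median position of 7 bases after it. CCAAT, on either strand (ATTGG on the other), lay upstream in 30 of 40 members (75%) against 40.5% of the detected genes. A match is a description of letters and not a site at which a factor was measured.

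Both elements are seen together in the 250 bases upstream of Cdk1, the mitotic kinase, and Top2a, topoisomerase II alpha, printed here as examples. Smc2, Ube2c and Kif15 were in more cells than Cdk1 and are not printed. Upstream, Smc2 held 1 CHR and 1 CCAAT match, Ube2c 1 and 6, and Kif15 2 and 0. Capitals mark CHR letters and CCAAT or ATTGG.
Cdk1 (chr10:69352913-69353162, minus strand): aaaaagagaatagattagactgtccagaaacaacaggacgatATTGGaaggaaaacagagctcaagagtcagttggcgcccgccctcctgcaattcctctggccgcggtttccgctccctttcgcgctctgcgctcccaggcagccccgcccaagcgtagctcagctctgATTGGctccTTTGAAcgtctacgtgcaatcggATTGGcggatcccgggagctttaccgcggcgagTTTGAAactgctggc
Top2a (chr11:99024190-99024439, minus strand): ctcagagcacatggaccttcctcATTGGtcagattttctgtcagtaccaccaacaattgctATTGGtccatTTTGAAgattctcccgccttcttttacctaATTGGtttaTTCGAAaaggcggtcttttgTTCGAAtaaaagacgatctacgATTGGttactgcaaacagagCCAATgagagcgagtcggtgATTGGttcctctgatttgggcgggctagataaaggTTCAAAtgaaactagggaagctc

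Cdk1 held 2 CHR matches and 3 CCAAT boxes, and Top2a held 4 and 6. No CHR match overlapped a CCAAT match in the upstream windows of the members, though 2 CCAAT matches on opposite strands can share letters, as they do in Ube2c. Both motifs lay upstream in 14 of 40 members (35%) and in 6.07% of the detected genes.

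To describe how the genes are found together, detection in a cell was set at 1 TPM. TPM is a level per transcript length scaled to a fixed total in each cell, so levels of different genes can be compared. The values are rounded to whole numbers and keep no sequencing depth, and 55.4% of all values of the members were listed at 0, which can also be a transcript lost in capture. A cell held from 0 (T4_3) to 46 (T3_11) of the 48 members, with a median of 20 and a mean of 21.4 ± 14.6 (SD over 56 cells). The cells did not fill this range evenly: 27 cells held 17 or fewer, 25 cells held 26 or more, and 4 cells lay between, at 20 to 22. These bounds were set after the counts were seen, and the gap depends on the detection level. At 5 TPM, T4_9 (34 members at 1 TPM) and T2_1 (20 at 1 TPM) both held 17. At 10 TPM the groups overlapped, with 8 members in T4_9 and 12 in T4_12 (17 at 1 TPM). No member was detected in every cell, and 15 were detected in over 28 cells. Ordered from few to many members, the cells form 4 consecutive runs of 14, with medians of 4, 11, 30 and 39.5 members. This is an order of counts, and words such as early and late refer to it and not to time, which was not measured. Each run held cells of all 5 sets, though the sets differed: the median count was 10, 12 and 14 for T1, T2 and T4, and 28.5 and 30.5 for T3 and T5.

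**Figure D1:**
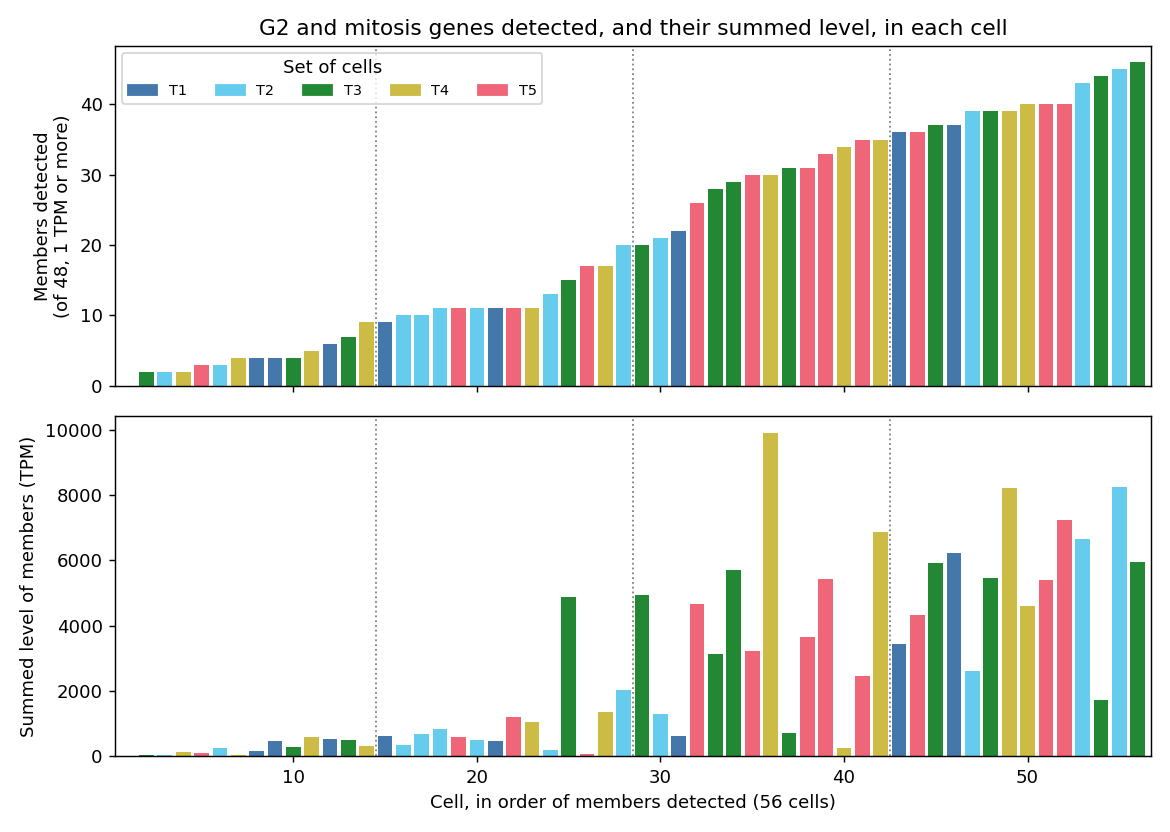
Upper panel, members detected (of 48) in each of the 56 cells, ordered from fewest to most; lower panel, the summed level of the 48 genes in TPM in the same cells. Colours are the sets T1 to T5 and dotted lines divide the runs of 14 cells; the highest sum, 9918 TPM, stands in a cell with 30 members.

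Cells with more members also held more other genes. The Spearman rho of the member count with the number of other genes detected was 0.61 over the 56 cells (0.29, 0.61, 0.85, 0.71 and 0.59 within T1 to T5). The median number of other genes was 4087, 4682, 4774 and 5211 in the 4 runs. Which part of this is depth, RNA content or cell cycle was not tested. For this reason each gene was compared with the number of other members detected as a partial rho, which removes the number of non-member genes. The summed level of the members had medians of 208.5, 649.5, 3447 and 5690.5 TPM in the 4 runs, and its rho with the count was 0.83. Count and level came apart in single cells. T4_9 held 34 members but only 257 TPM in all, with 8 members at 10 TPM or more, and T5_4 held 17 members and 71 TPM, with 1 at that level. T3_5, the cell with the most other genes (8352), held 44 members and 1728 TPM. T4_4 held 30 members and the highest sum, 9918 TPM, and it had the highest level of 9 members. T3_2, with 15 members, had the highest level of Smc4 and Racgap1.

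The members tended to nest. Of the 1094 pairs of members found in unequal numbers of cells, 1088 shared more cells than their separate frequencies give, and in 85 pairs every cell with the rarer gene held the commoner one. These are 99.5% and 7.77% of the pairs. Over all pairs of the 6126 other genes found in 10 to 47 cells, as the members were, the shares were 66.8% and 0.827%. All 31 cells with Mki67, for example, held Top2a, and 24 of the 25 cells with Ccnb1 did. Of the members, 24 were detected in at least 1 of the first 14 cells, 3 were in no cell of the first 28 (Fam64a, Kif2c and Shcbp1), and 15 were in every cell of the last run. Since the members themselves set the order, these counts describe the order and support nothing. Across the 48 members, rho between the number of cells and the median level in cells with the gene was 0.40, so the wider genes tended to be the higher ones. What part of the order of appearance this level has was not tested.

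**Figure D2:**
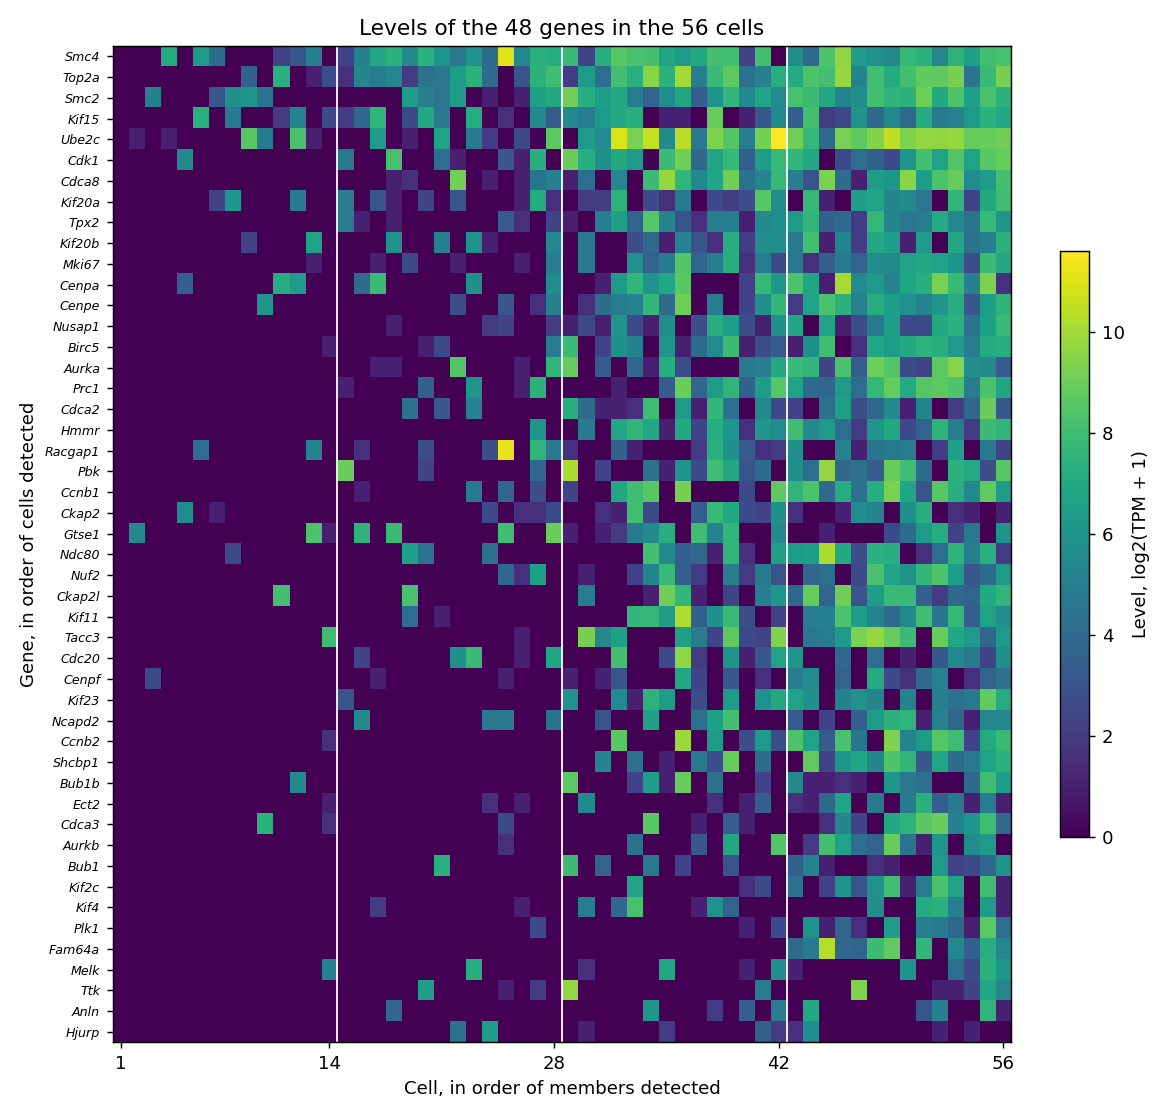
Level of each member as log2(TPM + 1) (colour) in each of the 56 cells, with cells ordered from fewest to most members (left to right) and genes from most to fewest cells (top to bottom). White lines divide the runs of 14 cells; Smc4, Top2a and Smc2 begin at the left, and Fam64a begins at the last line.

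Of the values of chromosome structure genes, 16.3%, 50%, 76.5% and 87.8% were detected in the 4 runs. The share in the first run rests on 3 of the 7 genes, Smc4 (6 cells), Smc2 (5) and Top2a (4), since Mki67 was in 1 cell there and Cdca2, Ncapd2 and Kif4 in 0. Ube2c (6 cells) and Kif15 (5), of other roles, were as early. Smc4, a condensin ATPase, was detected in 47 cells at 0 to 2105 TPM (median 72, mean 155 ± 302 SD). Its medians in the 4 runs were 0, 65, 196.5 and 135 TPM, so it was already high in the second run. Top2a, which untangles sister chromatids, was in 45 cells at 0 to 1029 TPM (median 37.5), and its run medians were 0, 26, 158 and 290 TPM. Every cell with 16 or more of the other members held Top2a. Smc2, the other condensin ATPase, was in 41 cells at 0 to 563 TPM (median 48.5), with run medians of 0, 1, 73 and 178 TPM. Ncapd2, a further condensin subunit, was in 21 cells and stood just under the level called following below (partial rho 0.39).

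Mki67, the antigen Ki-67 that coats mitotic chromosomes and marks cycling cells, was in 31 cells at 0 to 358 TPM (median 1, mean 30.1 ± 64.9 SD). Its run medians were 0, 0, 17.5 and 45.5 TPM, its values in the first run reached 1 TPM, and every value in the last run was 2 TPM or more. It had the highest partial rho of the members, 0.77. Cdca2, which brings a phosphatase to chromatin at mitotic exit, was in 27 cells (partial rho 0.61). Kif4, a chromokinesin, was in 14 cells, 0 of them in T1 and T4 (partial rho 0.36).

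Genes of the switch into and out of mitosis had 7.14%, 22.1%, 49.4% and 84.4% of their values detected in the 4 runs. Ube2c, the ubiquitin-conjugating enzyme of the APC/C, had the highest mean of the 48 genes, 364 ± 584 TPM (SD, 56 cells). It was in 40 cells at 0 to 3105 TPM (median 47), with run medians of 0, 0.5, 472 and 584.5 TPM. Cdk1 was in 34 cells at 0 to 548 TPM (median 10.5), with run medians of 0, 0.5, 122 and 103.5 TPM. These are steps between the second and the third run, with little difference between the last 2.

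The B-type cyclins were in fewer cells than Cdk1 and came later in this order of counts. Ccnb1 was in 25 cells at 0 to 619 TPM (median 0), with run medians of 0, 0, 2 and 150 TPM, and every cell of the last run had 7 TPM or more. Ccnb2 was in 20 cells at 0 to 938 TPM, with run medians of 0, 0, 0 and 118.5 TPM. Aurka, the Aurora A kinase of the spindle poles, was in 28 cells at 0 to 712 TPM, with a last-run median of 125.5 TPM and a lowest value there of 4 TPM. The partial rho was 0.71 for Ccnb1, 0.61 for Ccnb2 and 0.64 for Aurka.

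Plk1, the Polo-like kinase, was in 14 cells, 11 of them in the last run, at 0 to 407 TPM; the cell T2_9 held 60.8% of its summed level. Fam64a was in 12 cells, all of them in the last run and each with at least 35 other members, at 0 to 1251 TPM, and T3_6 held 51.1% of its sum. Pbk, a mitotic kinase, was in 26 cells (partial rho 0.60), and Cdca3, which triggers degradation of the Wee1 kinase, was in 18 (0.51). Melk, a kinase of the same expression programme, was in 12 cells and was lower in this respect (0.24).

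Cdc20, the activator of the APC/C at anaphase, went less closely with the other members than the cyclins it helps to destroy. It was in 22 cells at 0 to 802 TPM (median 0), with run medians of 0, 0, 2 and 6 TPM, and T4_4 held 41.9% of its sum. Its highest value in the last run was 68 TPM, below the highest values of the second run (229 TPM) and the third run (802 TPM). Ccnb2 too had its highest value in the third run (938 TPM, against 652 TPM in the last). Both of these peaks stood in T4_4, where Ccnb1 was at 594 TPM. The partial rho of Cdc20 was 0.28, and its rho without that adjustment was 0.48.

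The chromosomal passenger complex corrects wrong attachments and sets the cleavage plane. Its members had 2.38%, 26.2%, 66.7% and 90.5% of their values detected in the 4 runs. Cdca8 (borealin) was in 33 cells at 0 to 864 TPM (median 1.5), and its run medians were 0, 0.5, 41 and 84 TPM. Birc5 (survivin) was in 29 cells at 0 to 263 TPM, with run medians of 0, 0, 12.5 and 105 TPM. Aurkb, the Aurora B kinase, was in only 16 cells, 11 of them in the last run, at 0 to 481 TPM. The partial rho was 0.74, 0.65 and 0.60 for the 3 genes.

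Kinetochore and checkpoint genes had 5.56%, 17.5%, 50% and 75.4% of their values detected in the 4 runs. Cenpe, a kinesin that moves chromosomes to the spindle equator, was in 30 cells at 0 to 520 TPM (median 2.5; run medians 0, 0, 22 and 91 TPM). Nuf2 and Ndc80, partners in the complex that grips microtubules, were each in 25 cells, with last-run medians of 38.5 and 85 TPM. Cenpa, the centromeric histone, was in 30 cells at 0 to 1080 TPM, with a last-run median of 113.5 TPM. The partial rho was 0.76 for Cenpe and Nuf2, 0.62 for Ndc80 and 0.49 for Cenpa.

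The checkpoint kinases and their partners were sparser. Bub1b was in 19 cells (partial rho 0.55), Bub1 in 16 (0.43), and Ttk, the kinase Mps1, in 11 (0.29); T3_8 held 47% of the sum of Ttk and 37.1% of that of Bub1. Cenpf, a large kinetochore protein, was in 21 cells (0.47). Hjurp, the chaperone that loads Cenpa, was in 10 cells at 0 to 90 TPM, with 4 in each of the last 2 runs and 2 in the second, and its partial rho was 0.19.

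Spindle genes made one of the steepest steps, from 23.6% of values detected in the second run to 70.7% in the third. Hmmr, a spindle-pole protein, was in 27 cells at 0 to 262 TPM; 1 of the first 28 cells held it, and 26 of the last 28 did. Its run medians were 0, 0, 56.5 and 56 TPM. Tpx2, the activator of Aurora A, was in 33 cells at 0 to 376 TPM (median 2), with run medians of 0, 0, 30 and 40 TPM. Kif11, the motor that pushes spindle poles apart, was in 24 cells at 0 to 1199 TPM, with 36.9% of its sum in T4_4. The partial rho was 0.76, 0.73 and 0.73.

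Nusap1, a microtubule bundler, was in 30 cells (partial rho 0.71), Ckap2l in 24 (0.68), Tacc3, which stabilises spindle fibres, in 24 (0.59), and Kif2c, a microtubule-depolymerising kinesin, in 15, each with at least 27 other members (0.60). Kif15, a motor that backs up Kif11, was wide, in 40 cells at 0 to 474 TPM (median 9.5), but its partial rho was 0.29. Ckap2 was in 25 cells (0.23). Gtse1, a microtubule-binding protein of G2, had the lowest partial rho of the members, 0.15. It was in 25 cells at 0 to 492 TPM, with run medians of 0, 0, 14.5 and 2.5 TPM, and 10 of those cells were in set T3. With ranks centred by set, its value was -0.08.

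Cytokinesis genes had 7.14%, 25%, 57.1% and 79.5% of their values detected in the 4 runs. Prc1, which bundles the central spindle, was in 28 cells at 0 to 510 TPM, with run medians of 0, 0, 10 and 123 TPM, and its lowest value in the last run was 13 TPM (partial rho 0.71). Kif23 and Racgap1 form the centralspindlin complex and yet differed. Kif23 was in 21 cells (0.55), while Racgap1 was in 27 (0.28), and 74.5% of the summed level of Racgap1, 2424 TPM, stood in T3_2. Without T3_2 and T3_5 the partial rho of Racgap1 was 0.29. Shcbp1, a midbody protein, was in 20 cells, each with at least 21 other members (0.64). Ect2, the exchange factor that activates RhoA, was in 19 cells (0.58), Kif20b in 31 (0.51), Kif20a, a motor of the central spindle, in 33 (0.34), and Anln, anillin, in 10 (0.34).

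To set these values against all genes, a gene was said to follow the member count at a partial rho of 0.4 or more, and to run against it at -0.4 or less. Of the 7871 genes detected in at least 10 cells, 118 followed (1.50%) and 16 ran against (0.203%). Of the 48 members, which all passed the filter, 36 followed, 0 ran against, and all 48 values were above 0, with a median of 0.60, against a median of -0.01 over all genes tested. For a member the count left out that gene itself. Without the adjustment, 43 members and 3.38% of all genes had a rho of 0.4 or more. Across the members, rho between the number of cells and the partial rho was 0.38, so the wider members tended to have the higher values. There were exceptions: Fam64a, in 12 cells, had 0.61, and Kif15, in 40, had 0.29. The 12 other settings varied the index, the detection level, the cells and the adjustment, the last including plain rho and centring by set. At 10 TPM, 40 members passed the filter on cells and 33 of these followed. Of the 36 members that followed, 34 kept a value of 0.4 or more in all 12 settings, whether or not they passed that filter. The exceptions were Smc4, which had 0.37 with ranks centred by set, 0.34 without set T1 and 0.33 without T3, and Bub1, which had 0.38 without T2 and 0.28 without T3.

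**Figure D3:**
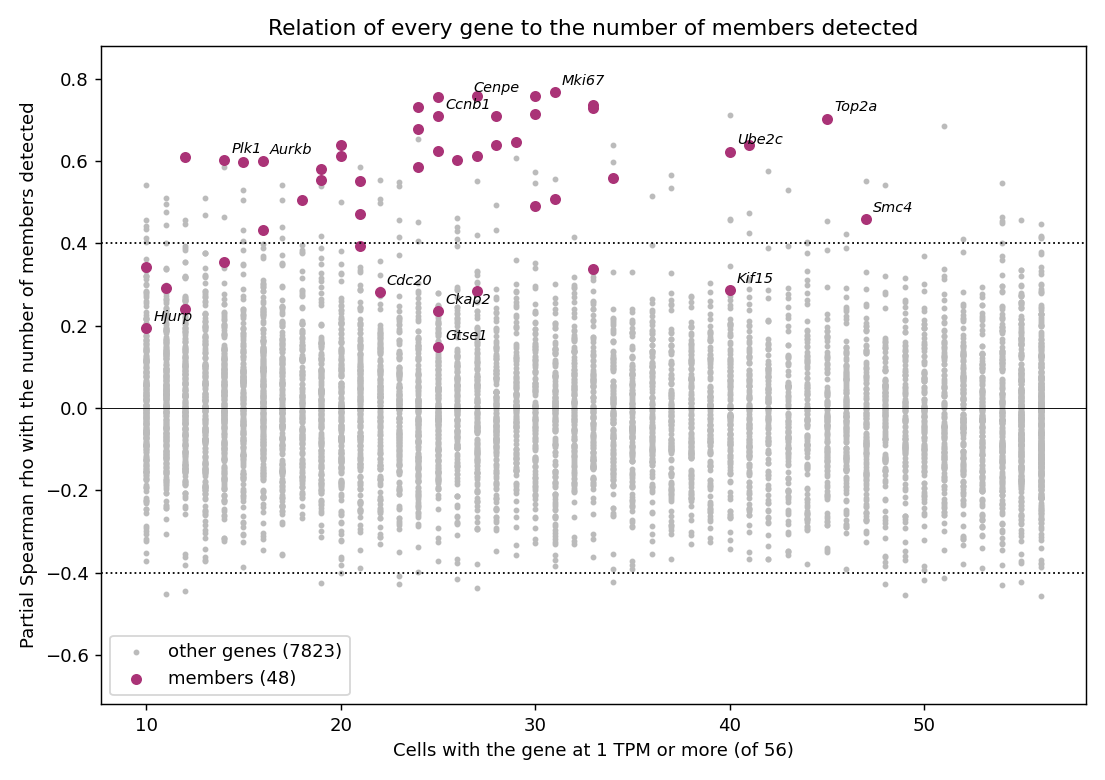
Partial Spearman rho of each gene's TPM with the number of members detected (y axis) against the number of cells with the gene (x axis), for the 7871 genes in at least 10 of the 56 cells. Members are purple and other genes grey; dotted lines mark 0.4 and -0.4, and all members lie above 0, from Gtse1 at 0.15 to Mki67 at 0.77.

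The members were also compared pair by pair. Over the 1128 pairs the mean Spearman rho of TPM was 0.42 (SD over pairs 0.17), and 1115 pairs were above 0. The mean was 0.34 as a partial rho given the other genes detected and 0.42 with ranks centred by set, and within single sets it ran from 0.33 in T5 to 0.51 in T2. The highest pair was Mki67 with Kif11, at 0.81, followed by Mki67 with Cdca8 and Mki67 with Hmmr, both 0.78. The lowest was Smc4 with Hjurp, at -0.17.

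Pairs within 1 of the 6 roles had a mean rho of 0.42 (188 pairs), and so had pairs from different roles (940 pairs); the difference was 0.00. Single roles went both ways: the mean within the role and with the other roles was 0.56 and 0.48 for the chromosomal passenger complex, 0.49 and 0.42 for chromosome structure, and 0.35 and 0.38 for kinetochore and checkpoint genes. Of 18 pairs of known partners the mean was 0.48. Mki67 with Top2a (0.74), Ccnb1 with Ccnb2 (0.69), Birc5 with Cdca8 (0.67) and Aurka with Tpx2 (0.66) were near the top of all pairs. Direct partners could also be low: the condensin pair Smc2 and Smc4 had 0.35, the centralspindlin pair Kif23 and Racgap1 had 0.33, and Cenpa with its chaperone Hjurp had 0.20. Cdk1 had 0.47 with Ccnb1 and 0.52 with Ccnb2. A tree of the members, divided at 3 branches, held 46 genes on 1 branch and left Gtse1 and Hjurp each alone.

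Genes outside the list followed too: 82 of the 7823, of which 32 were on a list of other G2/M genes, 9 on a list of G1/S and replication genes, 1 on a cohesin list and 40 on none of the lists. The highest was 2810417H13Rik, now named Pclaf, a partner of the replication clamp PCNA, with 0.71. It was in 40 cells at 0 to 1071 TPM, with run medians of 0, 2, 90.5 and 195.5 TPM. Hmgb2, a chromatin protein, had 0.69 and was in 51 cells at 0 to 385 TPM, with run medians of 3.5, 18, 52 and 144 TPM. C330027C09Rik, now Cip2a, an inhibitor of a phosphatase, had 0.65 and was in 24 cells. Fam33a, now Ska2, of the kinetochore, had 0.64.

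The kinetochore genes Spc24 (0.61) and Pmf1 (0.57), Espl1, the separase that cuts cohesin (0.59), Sgol1, which protects it (0.57), Cep55 of the midbody (0.59) and the condensin subunit Ncapg (0.55) also followed. So did replication genes: the histone chaperone Asf1b (0.60), thymidylate synthase Tyms (0.58), the ribonucleotide reductase subunit Rrm1 (0.55) and the linker histone Hist1h1b (0.55). Tyms_ps (0.56) carries the name of a pseudogene of Tyms, and reads of the pair may not be separable. All 15 of these genes kept a value of 0.4 or more in the 12 other settings.

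On the list of other G2/M genes, all 63 that entered had a value above 0, with a median of 0.41, and 32 followed. Its highest was Hmgb2 and its lowest Psrc1, a spindle protein, at 0.03 in 38 cells. Ran, a nuclear transport GTPase needed for the spindle, had the highest mean (616 TPM) and was in all 56 cells, at 0.24. H2afz, a histone variant in all 56 cells, had 0.45. Both have near-identical copies in the genome, so their levels are less certain. Chosen after its values were seen, Ccna2, cyclin A2, had 0.05: it was in 45 cells, and its run medians were 20.5, 33, 8.5 and 31.5 TPM, with no order from first to last.

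Of 78 genes of G1/S and replication, 9 followed (11.5%), with a list median of 0.20: Asf1b, Tyms, Rrm1, Rad51ap1, Uhrf1, Rfc4, Gmnn, Mcm10 and Rrm2. Pcna, the replication clamp, had the highest mean (327 TPM) and was in 54 cells, at 0.25. Ung, a uracil glycosylase, was the lowest at -0.19. The number of G1/S genes detected had a median of 49 (12 to 78 of 81) and medians of 23, 44, 54.5 and 55.5 in the 4 runs. Its largest step lay between the first and the second run, while that of the spindle genes lay between the second and the third. The spindle genes are part of the count that set the order. The median of that count also rose most there, from 11 to 30, so this contrast describes the order and supports nothing. The largest step was also the first for the chromosome structure members (16.3% to 50%) and for the number of non-member genes (median 4087 to 4682). An earlier rise of the G1/S genes was not tested. The number of G1/S genes had a rho of 0.65 with the member count, or 0.46 as a partial rho. Within T1 to T4 the plain rho was 0.67, 0.80, 0.82 and 0.77, and within T5 it was 0.02. In T5, the cells with 40 members, T5_9 and T5_5, held 38 and 27 G1/S genes, while T5_3, with 11 members, held 60. Without T5, 16 of the G1/S genes followed, without T1 14, and without T2 7.

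**Figure D4:**
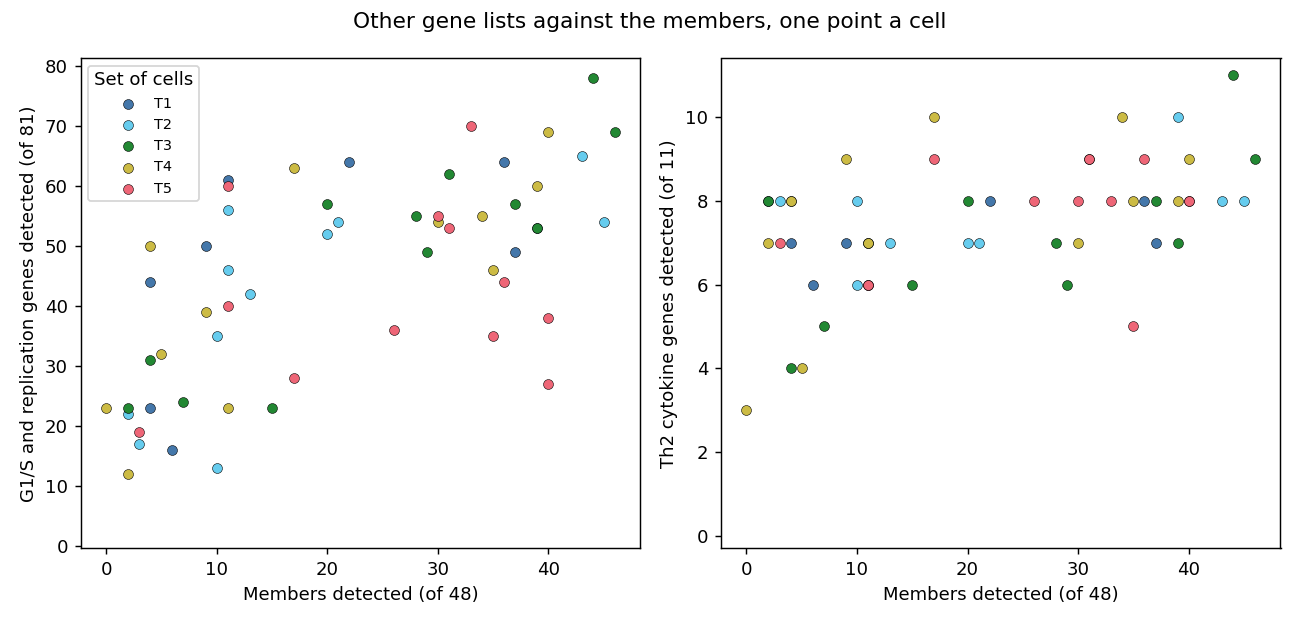
Left, G1/S and replication genes detected (of 81) and, right, Th2 cytokine genes detected (of 11), each against members detected (of 48) in the same cell, 1 point a cell, coloured by set. On the left, T5 (red) shows no rise, with a rho of 0.02.

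Few genes of the other cell cycle lists reached the level called following. Of the genes outside the member list 1.05% followed, so counts of 0 in lists of this length, here and below, lie near that share. Of 14 genes of the MuvB, B-Myb, FoxM1 and NF-Y group, 0 followed. Foxm1, the G2 activator, had the highest value (0.36) and was in 12 cells, 7 of them in the last run, with 71.8% of its sum in 1 cell; E2f5 was the lowest (-0.14), and Rbbp4, a MuvB subunit in 52 cells, had 0.28. Of 14 APC/C subunits 0 followed, from Anapc7 at -0.21 to Anapc5 at 0.25, with Anapc13 and Cdc26, both in 46 cells, at -0.02 and -0.05. Of 12 cohesin genes 1 followed, Esco2, the acetyltransferase of S phase (0.54, 17 cells), while Smc1a, in all 56 cells, had 0.16 and Nipbl -0.10.

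Of 9 D cyclins and G1 kinases 0 followed. Ccnd2, cyclin D2, was in all 56 cells at a mean of 1178 TPM and had the lowest value (-0.22), and Cdk2 the highest (0.24). Of 18 cell cycle brakes 0 followed. Btg1, an antiproliferative gene in all 56 cells at a mean of 1441 TPM, had -0.38, and Pkmyt1, which holds back Cdk1, had 0.24.

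Of 11 Th2 cytokine genes, which mark the function of these cells, 0 followed, near the 1.05% of genes outside the member list that did. Their median was 0.14, against -0.01 for the genes outside the member list. Il24 had 0.30, Csf2 and Il10 0.25, Il4 0.22, Il5 0.20, Il9 0.14, Il6 0.11, Il3 and Il31 0.00, Il13 -0.01 and Areg, amphiregulin, -0.16. Il4 was in 54 cells, 12 of the first 14 and all 42 others, at 0 to 26918 TPM (median 420). Il5 was in 14 cells, 3 of the first 28 and 11 of the last 28. The number of cytokine genes detected had a partial rho of 0.24 with the member count and a rho of 0.46 without adjustment (0.19, 0.18, 0.63, 0.57 and 0.32 within T1 to T5). Against the mean z-scored log2(TPM + 1) of the members in place of their count, the partial rho was 0.12.

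Of 19 Th2 regulators and receptors 0 followed: Gata3, the Th2 master regulator, was in all 56 cells and had -0.02, Irf4 had -0.26, Ecm1 had -0.19 with the highest mean (1894 TPM), and Gpr44, the prostaglandin D receptor, had 0.25. Of 15 genes of the interleukin-2 receptor and activation 0 followed. Tnfrsf4 (OX40) had a mean of 9962 TPM and 0.12, Il2ra had -0.09, and Cd44, an adhesion receptor, was the lowest at -0.31. Of 13 T cell identity genes 0 followed. Cd3d, Cd3e and Cd2 were in all 56 cells and Cd3g in 54, while Cd5 was in 43 and Cd4 in 37, at a median of 8.5 TPM. The list ran from Ptprc, the phosphatase CD45 in all 56 cells (-0.29), to Thy1 (0.20). The cells with few members therefore carried the T cell markers as well: a cell held 9 to 13 of 13.

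Of 22 markers of other cell types 5 had a row in the table. Their summed level was 0 to 672 TPM in a cell. Cd74, an antigen-presentation chain, was in 32 cells (-0.03), Cd68, of macrophages, in 10 (0.20), Cpa3 in 5, Alas2 in 2 and Cd8b1 in 1. The number of these markers detected had a partial rho of 0.07 with the member count; their part in the result was not tested. Doublets were not called, since the values hold no counts.

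**Figure D5:**
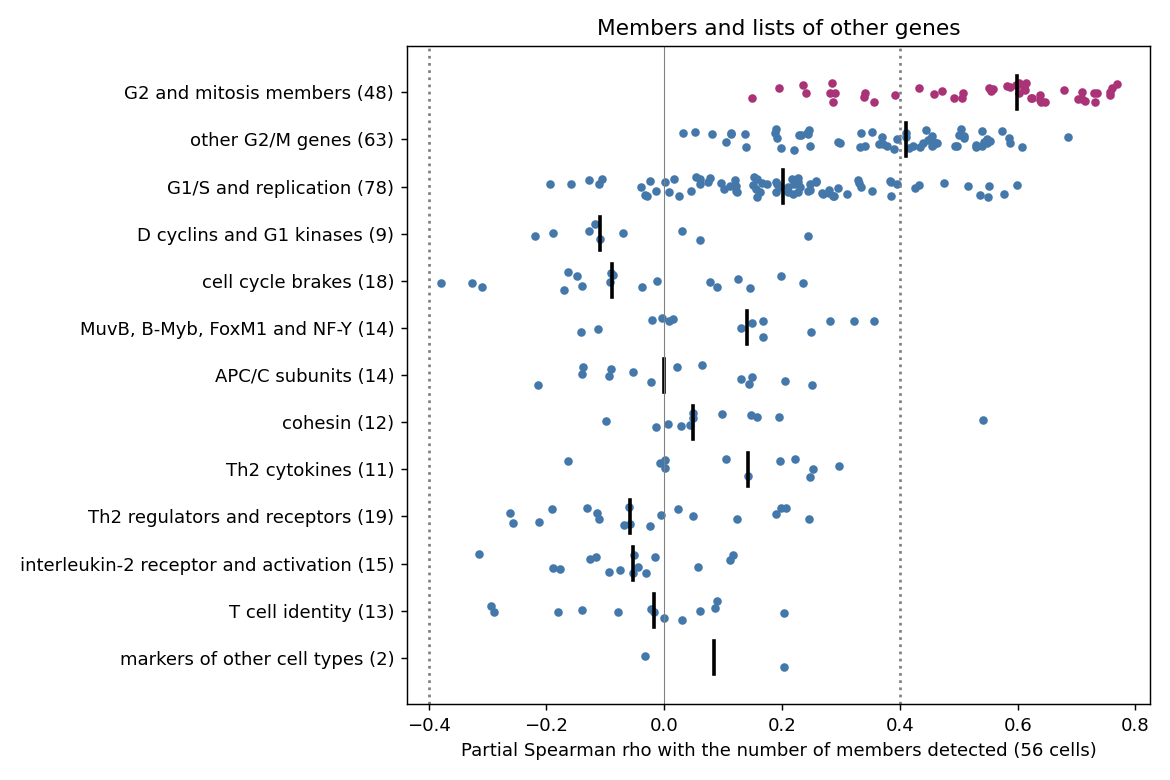
Partial Spearman rho with the number of members detected over 56 cells, 1 point a gene, for the members (purple) and 12 lists of other genes (blue), with the number of genes in brackets. Black bars are medians and dotted lines mark 0.4 and -0.4; the median is 0.60 for the members, 0.41 for other G2/M genes and 0.20 for G1/S genes.

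Few genes ran against the members. The lowest were Srsf5, a splicing factor in all 56 cells at a median of 233.5 TPM (-0.46), Nob1, a ribosome maturation nuclease in 49 cells (-0.45), 4921531C22Rik (-0.45), C030034I22Rik (-0.44), Dtwd2 (-0.44), the ubiquitin ligase Huwe1 (-0.43), Rnf11 (-0.43), the exosome subunit Exosc1 (-0.43), D10Bwg1379e, now Arfgef3 (-0.42), and Atp5d, a subunit of ATP synthase (-0.42). Each of the 10 lost the call in at least 2 of the 12 other settings. Without adjustment their values ran from -0.09 for 4921531C22Rik to -0.38 for Atp5d, with -0.19 for Nob1 and -0.37 for Srsf5. 4921531C22Rik and C030034I22Rik were in only 11 and 12 cells, with a median of 0 TPM in every run. A single cell held 63.3% and 43.2% of their sums.

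The genes most like 3 members were taken by plain rho of TPM over the 56 cells. Those most like Mki67 were 2810417H13Rik (0.70), Hmgb2 (0.69) and Ncapg (0.63). Those most like Ccnb1 were C330027C09Rik (0.64), Spc25 (0.61) and Hmgb2 (0.59). Those most like Cdc20 were a different set: Cdc25b, the phosphatase that activates Cdk1 (0.62, in 14 cells), Kif18a, a kinesin of chromosome alignment (0.58, in 12 cells), and Ckap5, a microtubule polymerase (0.53, in 47 cells).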

How the data were processed

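RNA sequencing libraries of 56 single cells, captured per the labels on a Fluidigm C1, a microfluidic device, were read from 1 deposited table. Its values are a score: TPM rounded to whole numbers by the authors, as the column sums of 999202 to 999914 show. Per the submitters' processing notes, the build was mm9; FastQC, Bowtie 0.12.2 and Cufflinks are named there without their roles. Neither sequencing depth nor the counting error of the levels can be read from such values. The members, the lists (6 roles, 12 lists, 18 pairs) and the settings were chosen with earlier results of these data known.

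Cells were ordered by the number of members at 1 TPM or more (ties by summed log2(TPM + 1)). Partial Spearman rho with that count, given the number of other genes detected, was computed for genes in at least 10 cells and tested on simulated data. Named were all members, the 15 highest and 10 lowest outside genes, for each list the highest and lowest partial rho, the highest mean and the most cells, all Th2 cytokines, and the 3 genes most like Mki67, Ccnb1 and Cdc20. Symbols keep the table's names; 9501 were current, 948 older and 116 unmatched. Promoters came from RefSeq (GRCm38.p6). No 2 of the 1540 pairs of cells held identical values. The alternatives were the detection level (5 or 10 TPM), pseudocount, index, filter, plain rho, centring by set, and leaving out sets or cells T3_2 and T3_5. Python 3.11.15, numpy 2.4.6, pandas 2.3.3 and scipy 1.17.1 were used.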

Additional observations from a re-analysis of the deposited data

How the results depend on the processing

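The median number of members per cell, the mean rho over pairs and the difference between roles each moved by less than their spread in every alternative. At 10 TPM the rho of the member count with other genes detected was 0.50 (0.61 at 1 TPM). With plain rho, 223 outside genes and 20 G1/S genes followed, and at a threshold of 0.5, 33 outside genes did (82 and 9 as reported). Without set T1 14 G1/S genes followed and without set T5 16. The partial rho of the Th2 cytokine count was 0.12 against the mean z-scored log2(TPM + 1) of the members and 0.46 as plain rho (0.24 as reported). Member promoters with a CHR were 80% in the whole window and 70% from 50 bases before to 50 after the start, the latter chosen after seeing the data (40% as reported). The cause of these shifts was not tested. Depth is unknown, so a gene listed at 0 may be present, and the cells are 1 sample. No paired analysis was possible because the cells form 1 group and no result comes from a test.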
